A study of Homo sapiens with 9 samples.

Results

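Merging the H3K4me3 peaks of all 9 libraries that shared at least 1 bp gave 30404 regions of the human genome (build hg19), and 737 of these carried a peak in every knockout library and in no control library. These 737 regions are described here. They were chosen by the calls themselves: a peak in all 6 knockout libraries, no peak in any of the 3 control libraries, and a position off the short arm of chromosome 9. Regions on chromosome 9 that began before position 39000000 were dropped, which removed 20 of the 757 regions that met the rule on calls. Because control and knockout calls selected the regions, the difference between control and knockout at them is a description and was not tested. The 737 regions were 2.45% of the 30073 regions off that arm.

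All libraries came from HEL, an established human erythroleukemia cell line with erythroid and megakaryocytic features, profiled by CUT&RUN, in which an antibody tethers a nuclease to chromatin and the released fragments are sequenced. The groups were NTC, a non-targeting CRISPR control (3 libraries), and CRISPR knockouts of WTAP, METTL14 and METTL3 (2 libraries each), called WTAP-KO, METTL14-KO and METTL3-KO. All cells were grown in RPMI medium with fetal bovine serum. The labels do not say whether libraries of a group came from separate cultures, so p-values measure the spread between libraries only. The peak lists hold no measure of the targeted proteins, and the knockouts could not be checked in them.

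H3K4me3 is trimethylation of lysine 4 on histone H3, laid down by the SET1 and MLL methyltransferase complexes around active and poised promoters, above all where CG dinucleotides are dense and unmethylated. METTL3 is the catalytic subunit of the nuclear complex that writes N6-methyladenosine on messenger RNA, METTL14 is its partner in binding RNA, and WTAP anchors the pair to the rest of the complex. The comparison of these libraries asks how promoter H3K4me3 differs once that complex is disrupted.

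The libraries differed in the number of calls. The NTC libraries held 21724 to 21941 peaks each, the METTL3-KO libraries 9205 and 9369, and the remaining KO libraries 3160 to 5286. The signal of a peak is fragment coverage summed over its bases and scaled to a yeast spike-in, and in each library 99.7 to 100% of values were whole multiples of 1 step, to within 0.1 of a step. That step was 1.14 to 1.32 in the NTC libraries, 1.07 in METTL3-KO library 2 and 0.320 to 0.461 in the other KO libraries, while the lowest signal in every library lay between 30.1 and 32.0. No peak in any library was wider than 2000 bp, none was narrower than 150 bp, and no pair of peaks in a library lay closer than 200 bp. Of the erythroid marker genes set for HEL, 5 of 11 (EPOR, GATA1, GFI1B, KLF1 and TAL1) had an NTC peak within 1 kb of a start in all 3 libraries, against 0 of 4 epithelial markers.

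For 4 of the regions, 200 bases from the plus strand of hg19 are given, with CG dinucleotides in capitals. In each region they are the stretch free of annotated exons that holds the most CG, so they are not typical of the region. Over the whole region, CG per 100 bp was 6.10 at CRYZL1 and ITSN1, 4.23 at BACH1, 5.46 at CHORDC1 and 0.714 at SNRK. CRYZL1 and ITSN1 share a divergent start in one of the strongest regions (chr21:35013787-35013986, 11 CG). BACH1 lies in a list of erythroid transcription factors (chr21:30671498-30671697, 27 CG). CHORDC1 marks the region farthest from any NTC peak (chr11:89955445-89955644, 9 CG). SNRK lies beside a region that is poor in CG and flanked by NTC peaks (chr3:43328735-43328934, 5 CG).
CRYZL1 and ITSN1: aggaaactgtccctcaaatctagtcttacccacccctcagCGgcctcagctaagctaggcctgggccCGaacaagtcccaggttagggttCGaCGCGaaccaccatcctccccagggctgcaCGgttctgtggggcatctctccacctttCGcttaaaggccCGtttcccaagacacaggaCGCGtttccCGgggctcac
BACH1: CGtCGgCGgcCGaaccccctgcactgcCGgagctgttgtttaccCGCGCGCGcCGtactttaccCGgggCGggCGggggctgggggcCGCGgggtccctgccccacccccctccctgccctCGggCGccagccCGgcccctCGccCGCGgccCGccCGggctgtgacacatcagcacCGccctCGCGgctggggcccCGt
CHORDC1: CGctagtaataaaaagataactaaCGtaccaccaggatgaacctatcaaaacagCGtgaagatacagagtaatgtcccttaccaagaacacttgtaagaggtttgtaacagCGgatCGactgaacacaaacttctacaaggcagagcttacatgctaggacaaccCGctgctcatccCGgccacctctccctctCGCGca
SNRK: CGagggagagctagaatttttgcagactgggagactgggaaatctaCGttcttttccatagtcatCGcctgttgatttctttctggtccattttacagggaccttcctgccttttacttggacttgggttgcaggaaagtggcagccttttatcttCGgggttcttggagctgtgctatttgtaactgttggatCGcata

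The regions were promoter regions for the most part. Of the 737, 622 (84.4%, exact 95% binomial interval 81.6 to 86.9%) lay within 1 kb of a protein-coding start and 496 (67.3%) had such a start inside. The same share within 1 kb was 57.0% over all 30073 regions, 81.9% over the 504 regions called in all 9 libraries, 68.5% over the 3805 regions called in 1 to 5 KO libraries and no NTC library, and 51.1% over the 11404 regions called in all 3 NTC libraries and no KO library. A further 65 regions lay within 1 kb of the start of another annotated gene, such as a long non-coding RNA. Of the 50 left, 24 were intergenic, 19 lay in introns and 7 over exons.

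In base composition they lay close to other regions with KO peaks. The median GC content was 52.3%, from 33.8 to 72.7%. The median ratio of observed to expected CG dinucleotides, which is 1 where CG is as frequent as the C and G content allows, was 0.673 in the 737 regions, 0.642 in regions called in all 9 libraries, 0.638 in regions called in 1 to 5 KO libraries only, and 0.459 in regions called in all 3 NTC libraries and no KO library. Among the 737, the ratio was 0.700 where a protein-coding start lay inside and 0.379 in introns. These shares and medians are descriptions, since regions are not replicates.

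Gene by gene, 781 of 20149 protein-coding genes (3.88%) had one of the regions within 1 kb of a start. Of these 781 genes, 565 (72.3%) had no NTC peak within 1 kb of any of their starts in any library, 137 had one in all 3 NTC libraries at the same or another start, and 79 in 1 or 2. A pair or more of genes started within 1 kb of 185 regions (25.1%), and 437 regions had exactly 1 such gene.

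The strongest region lay at the long non-coding gene LINC00910 (chr17:41465308-41466909). Its signal was 47404 and 43251 in METTL3-KO, 33764 and 24736 in METTL14-KO, and 29963 and 36086 in WTAP-KO. No NTC library had a peak closer than 8919 bp. SPATC1L followed (chr21:47604018-47605728), with 20630 and 14843 in METTL3-KO, 17462 and 9945 in METTL14-KO, and 10675 and 13568 in WTAP-KO. The divergent start of CRYZL1, a quinone reductase-like gene, and ITSN1, an endocytic scaffold (chr21:35013284-35015135), had 20947 and 17410, 16263 and 9911, and 7608 and 9290 in the same order. At each of these regions the 6 KO libraries spanned less than 3-fold, and the METTL3-KO libraries were the highest or within the range of the METTL14-KO pair.

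**Figure D1:**
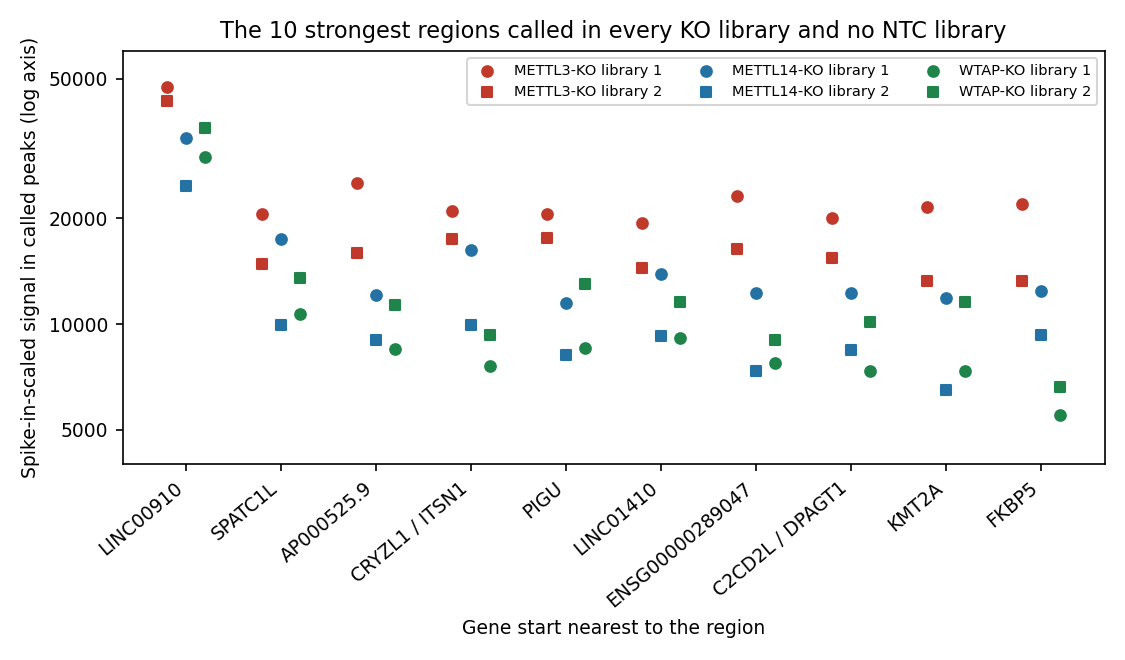
Signal (spike-in-scaled coverage summed over called peaks, log axis) of the 10 strongest of the 737 regions in each of the 6 KO libraries, 1 point per library. The region at LINC00910 lies above the other 9 in every KO library, and METTL3-KO library 1 gave the highest signal at each region.

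The other 7 of the 10 strongest lay at PIGU, a subunit of the enzyme that attaches glycosylphosphatidylinositol anchors to proteins, at DPAGT1 and C2CD2L, at KMT2A, at FKBP5, a co-chaperone of the glucocorticoid receptor, and at the non-coding genes LINC01410, AP000525.9 and ENSG00000289047. Mean KO signals of these 10 ran from 11510 to 35867, against a median of 3349 and a lowest of 735 over the 737 regions. The region at KMT2A, a methyltransferase of H3K4 (chr11:118307981-118309756), began 74 bp from the nearest annotated start and had 21473 and 13255 in METTL3-KO, 11857 and 6473 in METTL14-KO, and 7355 and 11534 in WTAP-KO. Its nearest NTC peak lay 76489 bp away.

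The gene lists chosen for this cell line and these knockouts held few members each, and their shares are read against 3.88% of all protein-coding genes. The list of erythroid transcription factors had 1 of 30 genes, BACH1, a heme-regulated repressor. The signal of BACH1 (chr21:30671489-30673094) was 20702 and 10560 in METTL3-KO, 10712 and 7142 in METTL14-KO, and 8495 and 10103 in WTAP-KO. Its nearest NTC peak was 248 bp away in NTC library 1 and 3766 and 3785 bp away in the others. Heme synthesis had 0 of 21 genes. Apoptosis and JAK-STAT genes had 2 of 36, the kinases JAK1 and PIM1, both of which had an NTC peak within 1 kb of one of their starts. At JAK1, which signals from cytokine receptors (chr1:65533517-65535070), the signal was 12450 and 11232 in METTL3-KO, 2268 and 5173 in METTL14-KO, and 2581 and 3525 in WTAP-KO.

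Genes of RNA methylation and of H3K4 methylation had 2 of 21 members each. IGF2BP2, a reader of N6-methyladenosine (chr3:185540046-185541336), had a signal of 13456 and 5896 in METTL3-KO, 7586 and 4456 in METTL14-KO, and 2387 and 4620 in WTAP-KO. VIRMA, a scaffold subunit of the writer complex, had 7439 and 3805, 3779 and 2149, and 1138 and 1176. At both genes the WTAP-KO libraries included the lowest value and METTL3-KO library 1 the highest. ASH2L, a core subunit of the H3K4 methyltransferase complexes, ranged from 63.5 in WTAP-KO library 1 to 9330 in METTL3-KO library 1. METTL3, METTL14 and WTAP themselves had none of the regions.

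Epigenetic leukemia genes had 4 of 40 (DNMT3B, EED, KDM5A and U2AF1) and splicing factors 4 of 59 (PRPF6, RBM39, SRSF11 and U2AF1). U2AF1, which recognises the 3′ splice site (chr21:44527606-44529406), had 20801 and 11961 in METTL3-KO, 12421 and 7315 in METTL14-KO, and 3780 and 6172 in WTAP-KO. EED, a core subunit of Polycomb repressive complex PRC2 (chr11:85954389-85956045), had 11360 and 4114, 6552 and 4607, and 576 and 1827, so its METTL3-KO and METTL14-KO values overlapped and WTAP-KO was lowest. DNMT3B, a de novo DNA methyltransferase, ranged from 197 in WTAP-KO library 1 to 9867 in METTL3-KO library 1.

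Translation initiation factors had 3 of 41 (EIF3E, EIF3H and EIF3K), and cytosolic ribosomal proteins 4 of 79 (RPL37A, RPL4, RPL41 and RPS18). The region shared by RPS18, a protein of the small ribosomal subunit, and VPS52 (chr6:33239063-33240824) had 16085 and 12547 in METTL3-KO, 7705 and 5987 in METTL14-KO, and 4801 and 5479 in WTAP-KO. EIF3H, a subunit of initiation factor eIF3, shares its region with UTP23 and had 12674 and 6205, 6070 and 4898, and 4514 and 5214. In both regions METTL3-KO library 1 was highest and the WTAP-KO libraries held the lowest value. Cell cycle regulators had 3 of 44: AURKA, a mitotic kinase, and CDKN1B and CDKN2C, inhibitors of cyclin-dependent kinases. The CDKN1B region (chr12:12870747-12872729) was uneven between groups, with 10840 and 7927 in METTL3-KO, 241 and 1047 in METTL14-KO, and 2726 and 3420 in WTAP-KO.

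Replication-dependent histone genes had 9 of 66 members (13.6%), the highest share of the 12 lists, and all 9 lay in 6 regions of the histone cluster on chromosome 6. They were H1-5, H2AC15, H2AC16, H2BC10, H2BC15, H2BC6, H3C8, H3C11 and H4C13, which encode the histones made during DNA replication. The region over H2BC10 (chr6:26272191-26274762) had 11709 and 6201 in METTL3-KO, 5262 and 3047 in METTL14-KO, and 2488 and 2887 in WTAP-KO. The region of H1-5, a linker histone, and H2AC16 (chr6:27833485-27835446) had 9959 and 4283, 3429 and 331, and 201 and 1226, a wider spread between libraries. None of the 9 genes had an NTC peak at any start, and over the whole list 14 of 66 genes (21.2%) had one in all 3 NTC libraries, against 42.1% of all protein-coding genes. Zinc finger genes of chromosome 19 had 12 of 249 (4.82%), the strongest being ZNF223, ZNF225, ZNF175 and ZNF146. ZNF223 (chr19:44554961-44556928) had 12716 and 5869 in METTL3-KO, 3563 and 4007 in METTL14-KO, and 2413 and 2647 in WTAP-KO.

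Around the protein-coding starts inside the regions, called peaks were centred on the start. The start itself was covered by a peak at 475 of 496 regions in METTL3-KO library 1 (95.8%), at 460 in METTL3-KO library 2, at 381 and 306 in METTL14-KO, and at 268 and 278 in WTAP-KO. NTC peaks covered 0 of the 496 starts, as the rule requires. At 2 kb upstream of the start the NTC libraries covered 3.02 to 3.83%, and at 2 kb downstream 1.81 to 3.02%. At regions called in all 9 libraries, NTC peaks covered 96.8 to 98.9% of 378 starts and 5.03 to 5.56% of positions 2 kb upstream.

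**Figure D2:**
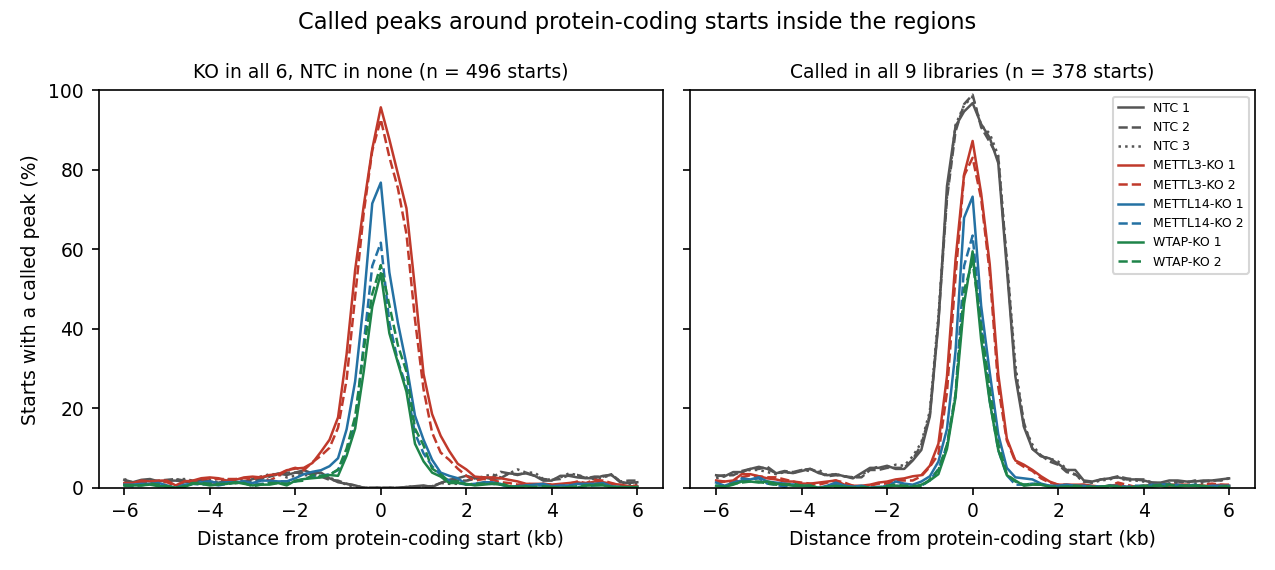
Percent of protein-coding starts with a called peak at each distance from the start in kb (negative is upstream), for 496 starts inside the 737 regions (left) and 378 inside regions called in all 9 libraries (right), 1 line per library. KO peaks centre on the start in both panels, and NTC peaks, absent by the rule at the left, are the widest at the right.

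Most of the 737 regions had no NTC peak close by. An NTC peak lay within 2 kb of 157 regions (21.3%) in NTC library 1, 135 (18.3%) in NTC library 2 and 139 (18.9%) in NTC library 3. In any of the libraries together the count was 209 (28.4%, exact 95% binomial interval 25.1 to 31.8%), and in every one of them 85 (11.5%). For the 3805 regions called in 1 to 5 KO libraries and no NTC library, the counts in NTC libraries 1, 2 and 3 were 840, 799 and 724, of which the first is 22.1%. Peaks within 2 kb on both sides were seen at 8, 7 and 4 of the 737 regions. The closest NTC peak of all was 248 bp away, and the median distance to the nearest one was 14074, 15114 and 15216 bp in the 3 libraries.

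The stretch without NTC calls around each region was long, as it was around other regions called in KO libraries only. It was measured from the end of the last NTC peak before the region to the start of the first one after it. The shortest was 2608 bp in NTC library 1, 2891 bp in NTC library 2 and 3133 bp in NTC library 3, and the medians were 115822, 117572 and 117903 bp. No measured stretch around the 737 was 2000 bp or less, the widest peak the lists hold, in any of the 3 NTC libraries. Around the 3805 regions called in 1 to 5 KO libraries and no NTC library, the medians were longer, at 127200, 133625 and 138305 bp. Of these 3805, 17, 17 and 3 lay in stretches of 2000 bp or less. A stretch contains the region itself, and the median region width was 1380 bp in the 737 and 536 bp in the 3805. One of the 737 had no NTC peak on one side and so no measured stretch.

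The shortest mean stretches belonged to regions beside MED13, a subunit of the Mediator kinase module, EGLN1, an oxygen-sensing prolyl hydroxylase, DALRD3 and NDUFAF3, SNRK, and NIPAL3 and STPG1. At MED13 (chr17:60141103-60142305) the uncalled stretch was 3285, 3044 and 3133 bp in the NTC libraries. Its KO signal was 9487 and 4817 in METTL3-KO, 2049 and 1636 in METTL14-KO, and 1263 and 2793 in WTAP-KO. At the other end, CHORDC1 had its nearest NTC peak 1581312 bp away, SLITRK5 1031692 bp, TBC1D32 986990 bp, ARRDC3 821909 bp and FAM76B 462627 bp. The CHORDC1 region (chr11:89955277-89957090) had 6871 and 4902 in METTL3-KO, 3487 and 1802 in METTL14-KO, and 1649 and 888 in WTAP-KO.

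Near 89 of the 737 regions lay a region called in all 3 NTC libraries, within 2 kb, and there were 93 such neighbours. Their KO calls were not used to choose them. Of the 93, 63 (67.7%) had no peak in any KO library, 27 had one in 1 to 5 KO libraries and 3 in all 6, where 71.0% of all 16064 regions called in all 3 NTC libraries had none. The neighbours were chosen by their NTC calls, so their NTC and KO values are a description and no test is given.

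The 5 neighbours chosen for the largest difference between NTC and KO were near CD47, an anti-phagocytic surface protein, PRMT2, an arginine methyltransferase, UBASH3B, a tyrosine phosphatase, C6orf89 and FOXN2, a forkhead factor. The neighbour near CD47 (chr3:107818005-107819182) had a signal of 9516, 13590 and 13270 in the NTC libraries and was listed in no KO library. The region called only in KO libraries lay 1742 bp away and had a mean KO signal of 1193. At FOXN2 the neighbour (chr2:48540438-48541560) had 8385, 9307 and 8222 in NTC and no KO peak, and lay 671 bp from a region with a mean KO signal of 1900. At these 2 loci NTC and KO libraries had peaks beside each other that shared no base.

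In regions called in all 6 KO libraries and just outside the rule, NTC peaks were close to the 2000 bp limit. The 99 regions with exactly 1 NTC call had NTC peaks of median width 1878 bp, and 60 of the 99 (60.6%) were over 1800 bp. The 99 regions with 2 NTC calls had a median of 1845 bp and 117 of 198 (59.1%) over 1800 bp. In regions called in all 9 libraries the median was 1539 bp with 18.1% over 1800 bp, and over all 65496 NTC peaks it was 663 bp with 4.33%. By library, the median in regions with 1 NTC call was 1802.5 bp in NTC library 1 (50 peaks), 1908.5 bp in NTC library 2 (28 peaks) and 1857 bp in NTC library 3 (21 peaks).

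**Figure D3:**
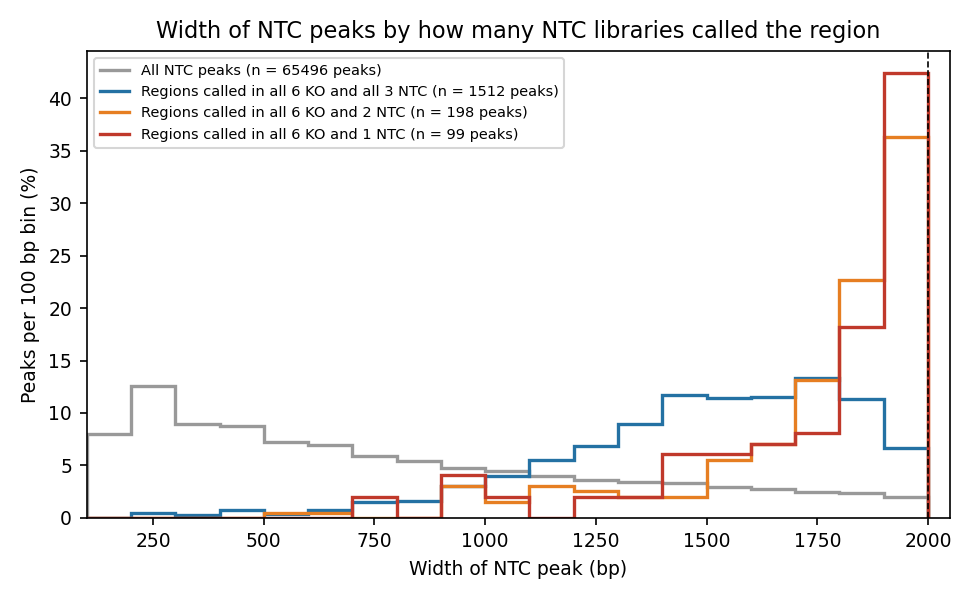
Distribution of NTC peak width (percent of peaks per 100 bp bin) for all NTC peaks and for the widest NTC peak of each library in regions called in all 6 KO libraries, split by the number of NTC libraries with a call; the dashed line is the 2000 bp limit. Where 1 or 2 NTC libraries had a call, about 60% of the peaks were over 1800 bp.

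The strongest loci with 1 NTC call are given one by one. At GDF5 (chr20:34041986-34043894), NTC library 1 had a peak of 1909 bp with a signal of 49331, while NTC libraries 2 and 3 had none. The KO signal there was 20561 and 16974 in METTL3-KO, 13248 and 9111 in METTL14-KO, and 11138 and 11600 in WTAP-KO, all below that 1 NTC value. At CDK5RAP1 (chr20:31988316-31990303), NTC library 2 alone had a peak, of 1988 bp and signal 44422, against 6998 to 21608 in the KO libraries. At FLI1, a transcription factor of megakaryocytes (chr11:128554329-128556264), NTC library 2 alone had a peak, of 1936 bp and signal 41598, against 6157 to 17053. In each of the 3 strongest regions with 1 NTC call, the called NTC library exceeded every KO library and the other NTC libraries had no peak.

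KO peaks in the 737 regions were widest in METTL3-KO. In METTL3-KO the median width of the widest peak per region was 1263 and 1097 bp, in METTL14-KO 642 and 488 bp, and in WTAP-KO 430 and 496 bp. In regions called in all 9 libraries the same medians were 806.5 and 743.5 bp, 495.5 and 386 bp, and 352 and 417 bp, so the 737 had the wider peaks in each of the 6 libraries. The widest KO peak of any library was over 1000 bp in 76.3% of the 737 (exact 95% binomial interval 73.0 to 79.3%), and the median of the 6 libraries' widest peaks in 15.9%. By library the share was 70.6 and 59.4% in METTL3-KO and 7.60 to 20.2% in the other KO libraries, against 29.4 and 23.2% and 2.38 to 7.14% in regions called in all 9. In regions called in all 9 libraries, NTC peaks were wider than the KO peaks of the same region, by a median of 1.79 and 1.93 times for METTL3-KO, 2.84 and 3.61 times for METTL14-KO, and 4.20 and 3.63 times for WTAP-KO. Median signals in the 737 regions were likewise above those in regions called in all 9, at 7870 and 4358 against 4839 and 3061 in METTL3-KO, 2795 and 1678 against 2192 and 1263 in METTL14-KO, and 1218 and 1741 against 912 and 1321 in WTAP-KO.

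The share of regions with no NTC peak was higher where KO peaks were wider. The 1439 regions called in all 6 KO libraries were sorted by the mean width of their widest KO peaks and split into 10 bins of 143 to 145 regions. In the narrowest bin (mean width up to 390.5 bp) 22.2% had no NTC peak, in the sixth 55.6%, and in the widest (from 1056 bp) 81.2%. Sorted by mean KO signal, the share went from 28.5% in the lowest bin to 70.1% in the eighth and was 59.7% in the highest. Taking every peak of METTL3-KO library 1, 29.8% of those under 500 bp and 94.1% of the 358 of 1500 bp or more lay in regions without an NTC peak. In METTL3-KO library 2 and the METTL14-KO libraries the narrow peaks had shares of 34.5 to 50.3% and the wide ones 86.0 to 91.7%. In WTAP-KO library 1 the shares from narrow to wide were 54.5, 61.0, 68.75 and 47.8% (46 peaks in the widest bin), and in WTAP-KO library 2 they were 56.1, 62.8, 67.2 and 67.8% (59 peaks). Whether an NTC peak over 2000 bp was left out of the lists at any of the 737 regions was not tested, since the lists hold no coverage outside called peaks.

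**Figure D4:**
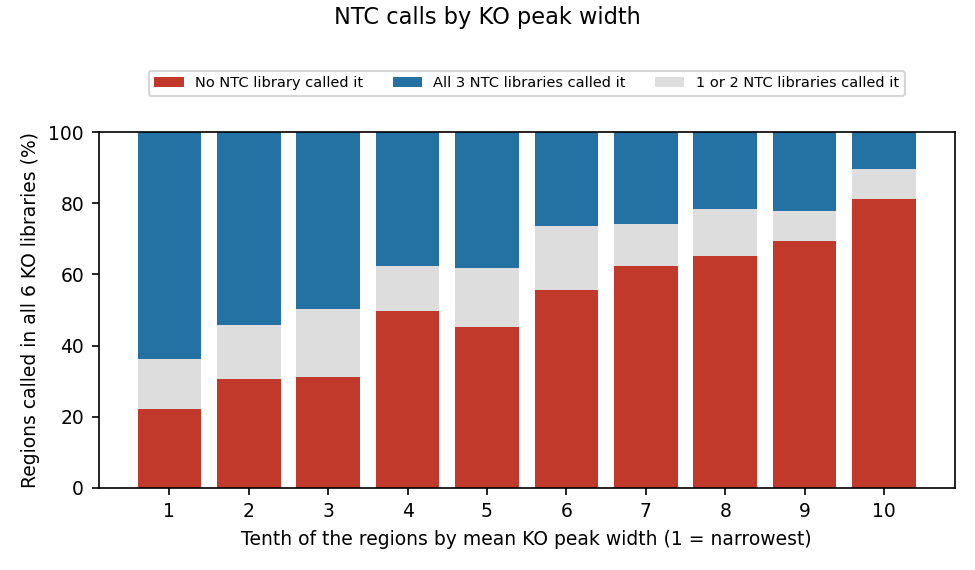
Regions called in all 6 KO libraries (n = 1439), in 10 bins by the mean width of their widest KO peaks, with the percent called in no, in 1 or 2, and in all 3 NTC libraries. The share without an NTC peak is 22.2% in the narrowest bin and 81.2% in the widest.

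A further 460 regions missed the rule by 1 KO library. The library without a peak was WTAP-KO library 1 in 150 of them, METTL3-KO library 1 in 107, METTL14-KO library 2 in 107, WTAP-KO library 2 in 56, METTL3-KO library 2 in 29 and METTL14-KO library 1 in 11. The strongest of the 460 lay at chr16:33955180-33958028, far from any protein-coding start, with no peak in METTL3-KO library 2 and signals of 31591 to 89855 in the other KO libraries. The next, at chrX:115003377-115005316, had none in METTL3-KO library 1 and 11968 to 24210 in the others. At TPX2, a spindle assembly factor (chr20:30326340-30328286), METTL3-KO library 1 had no peak while METTL3-KO library 2 had 18834 over 1800 bp, METTL14-KO 19965 and 16016, and WTAP-KO 8436 and 10018. METTL3-KO library 1, missing at TPX2, was the library of highest signal at each of the 10 strongest of the 737 regions.

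Between the knockouts, a contrast the rule did not use, signal at the 737 regions as deposited was highest in METTL3-KO. The log2 difference between METTL3-KO and the average of the other KO groups had a median of 1.69 and lay above 0 in all 737 regions. In limma (adjusted p under 0.05 over 24547 regions), 358 regions (48.6%) had more signal in METTL3-KO and 0 had less, where 14.7% of all regions tested were higher and 0.668% lower. The regions tested include 11404 called in all 3 NTC libraries and no KO library. At an unadjusted p under 0.05 the count was 648, with 0 lower. NTC values are 0 at every one of these regions by the rule, so they lower the spread that the fit estimates there. With the 6 KO libraries alone the count was 322, and 485 at an unadjusted p under 0.05. That fit covered a different set of regions, those with a peak in 2 or more KO libraries. Both METTL3-KO libraries lay above all 4 other KO libraries in 586 of the 737 (79.5%). Regions called in all 9 libraries showed a median difference of 1.48 and 38.9% higher, with both METTL3-KO libraries on top in 72.4%. The 198 regions called in all 6 KO libraries and in 1 or 2 NTC libraries had a median of 1.65. Of these 198, 0 passed in the same fit, also at an unadjusted p under 0.05. Their NTC values differ between libraries and add spread, so the share that passed cannot be compared between them and the 737. Once each library was scaled to its median over regions called in all 9, the median at the 737 was 0.21, 455 lay above 0, and 24 regions differed, 20 higher and 4 lower. With signals divided by the step of their library the median was 0.87, 699 lay above 0, and 5 regions were higher. The count was 129, 122 and 131 without NTC library 1, 2 or 3, 188 without METTL3-KO library 1 and 229 without WTAP-KO library 1.

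**Figure D5:**
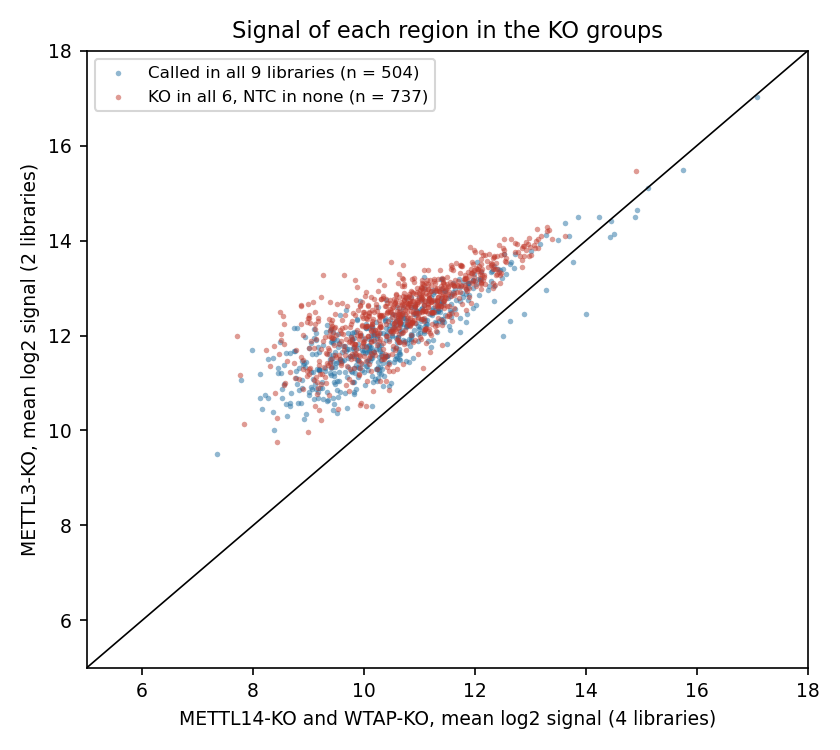
Mean log2 signal of each region in METTL3-KO (2 libraries) against the average of the other KO groups (4 libraries), for the 737 regions and the 504 regions called in all 9 libraries, with the line of equal signal. With signals as deposited all 737 regions lie above the line, as do 490 of the 504, with median differences of 1.69 and 1.48; scaled to regions called in all 9 libraries, 455 of the 737 do.

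Regions of large difference lay at GNAI3, a G protein alpha subunit, CAVIN2, a scaffold of caveolae, SRP54, the GTPase of the signal recognition particle, and TSC22D2. GNAI3 (chr1:110091026-110092098) had 5100 and 3250 in METTL3-KO against 176 and 208 in METTL14-KO and 381 and 138 in WTAP-KO, a log2 difference of 4.09 (SE 0.38, limma adjusted p = 0.000502). TSC22D2 (chr3:150128719-150130724) had 16000 and 6072 against 2555 and 853, and 281 and 645, a log2 difference of 3.57 (SE 0.61, limma adjusted p = 0.00952). CAVIN2 and SRP54 lay between, at 3.91 and 3.76. In these 4 regions the METTL3-KO libraries did not overlap the other KO libraries.

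Few of the regions passed the test between METTL14-KO and WTAP-KO. The median log2 difference was 0.53 with signals as deposited, and 8 regions were higher in METTL14-KO and 2 lower in limma, where 1.18% of all regions tested were higher and 0.558% lower. Those higher included regions at OSTC, NPAT, MRE11, POLR3F, C15orf61 and TUBB, and those lower lay at PTTG1IP and, at 15570 bp, nearest to EIF2S2. NPAT, a cell cycle factor of histone gene transcription (chr11:108091680-108093354), had 2313 and 2201 in METTL14-KO against 203 and 45.2 in WTAP-KO, a log2 difference of 4.11 (limma adjusted p = 0.0199), with 6537 and 3644 in METTL3-KO. MRE11, a nuclease of double-strand break repair (chr11:94226195-94227662), had 2400 and 2076 against 584 and 524, a log2 difference of 1.96 (limma adjusted p = 0.0305). PTTG1IP (chr21:46292230-46293175) had 605 and 540 in METTL14-KO against 2368 and 3117 in WTAP-KO, a log2 difference of -2.19 (limma adjusted p = 0.0253). The direction turned with the scaling: relative to regions called in all 9 libraries the median was -0.05, with 4 regions higher and 10 lower. NTC values are 0 at every one of these regions by the rule, so they lower the spread that the fit estimates. The adjusted p-values given here draw on that lowered spread. On the 4 METTL14-KO and WTAP-KO libraries alone, 2 regions passed in limma, 1 higher and 1 lower. With 2 libraries in each KO group the calls also moved with single libraries. In limma the count was 0 without NTC library 1, 2 or 3 (99, 96 and 100 at an unadjusted p under 0.05), 54 or 53 without METTL3-KO library 1 or 2, 5 and 38 without METTL14-KO library 1 or 2, and 3 without WTAP-KO library 1.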

How the data were processed

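H3K4me3 CUT&RUN peak lists of 9 HEL libraries were used, 1 list per library. Per the submitters' processing notes and the study's methods, fragments were aligned with Bowtie to hg19 and, for the yeast spike-in, to sacCer3, duplicates were removed with Picard, coverage was scaled to the spike-in, and peaks were called in each library without pooling. The authors deposited for each peak its position and a signal, the scaled coverage summed over the peak; tool versions are not given in the sources used here. Read depth is unknown.

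Peaks sharing at least 1 bp were merged across libraries, with deposited starts read as counted from 0. A region's signal was the sum of a library's peaks in it, and 0 where none was listed, so an uncalled region has no measured level. Genes came from GENCODE 44 lifted to GRCh37, and 2 symbols of the H3K4 list were not matched. Sequences were read from GRCh37. Differences were tested on log2(signal + 30.105), the smallest region signal, with limma 3.58.1 (R 4.3.3, trend, Benjamini-Hochberg adjustment) across 24547 regions with a peak in 2 or more libraries, which include all 737 regions described. Fold differences are on that scale. The KO against NTC fit at neighbouring NTC regions was run, but is not used, since those regions were chosen by their NTC calls. The fit was also run on simulated data, whose outcome is not given here and is not used as support for the fit. Binomial intervals are exact (95%), and cover counting of regions only.

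Genes named in the text were those of the 10 highest mean KO signals, the 5 shortest stretches without NTC calls, the 5 longest distances to an NTC peak, up to 4 members per list by mean KO signal (other members of a list are given by name where its count is broken down), the 5 largest differences per contrast and the strongest regions just outside the rule. The named region nearest EIF2S2 and others passing the METTL14-KO and WTAP-KO test were named because they were few, after their values were seen. Some regions that the rule names are not reported here. The regions and the gene lists were chosen with earlier results of these data known. Alternatives were the merging, windows, pseudocount, filter, scaling, peak statistic, replicate block, trend and leaving out each library.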

Additional observations from a re-analysis of the deposited data

Results flagged for a closer look

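The KO groups differed from each other at the regions absent from NTC. In limma, 358 of the 737 regions had more signal in METTL3-KO than in the average of the other KO groups. NTC values, which are 0 at these regions by the rule, lower the spread in that fit. With the 6 KO libraries alone 322 regions passed, and without NTC library 1, 2 or 3 the fit gave 129, 122 and 131. The count was 24 (20 higher, 4 lower) with scaling to regions called in all 9 libraries, 5 with signals divided by the step of their library and 122 with the replicate block. The METTL3-KO libraries held 9369 and 9205 peaks against 3160 to 5286 in the other KO libraries, and their part in the result was not tested.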

How the results depend on the processing

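Of 125 alternative values of 8 results, 87 stayed within the limits set (a count within 1.5 times the one reported, a share within its exact 95% binomial interval) and 38 did not. These 8 include the KO against NTC fit at neighbouring NTC regions, which is not used. Most of its alternatives stayed within the limits and raise the 87, so the tally is no measure of stability. With peaks at or above the median signal of their library alone, 360 regions met the rule, and leaving out 1 library gave 748 to 887. The share near a protein-coding start was 87.0% within 3 kb, 67.3% with the start inside and 93.2% with all gene types. An NTC peak lay within 500 bp of 4.61%, 1000 bp of 17.2% and 5000 bp of 42.9% of the regions, within 2 kb in every NTC library at 11.5%, and within 2 kb at 24.02 to 28.9% without 1 library. By the median of the 6 widest peaks 15.9% were over 1000 bp, and by the widest 63.6 to 75.7% without 1 library. METTL3-KO calls numbered 24 with scaling to regions called in all 9 libraries, 5 with signals divided by their step, and 122 to 480 without 1 library. METTL14-KO and WTAP-KO calls, 10 in all, numbered 3 and 5 with a pseudocount 0.1 or 10 times as large, 5 with at least 3 libraries, 20 without trend, 2 on their 4 libraries alone, 0 with signals divided by their step (28 at an unadjusted p under 0.05, limma), and 0 to 54 without 1 library. NTC neighbours numbered 47 within 1000 bp and 185 within 5000 bp. The cause of these moves was not tested, apart from the wider or narrower windows themselves.

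Deviations from the group mean were correlated between libraries with the same number, and none of 12 correlations was over 0.1 (lowest -0.07, highest 0.05). In groups of 2 libraries the deviations mirror each other, so the 12 are not separate checks. Whether the numbers pair the samples cannot be told from them, and the labels do not say. With the replicate block in limma, 122 METTL3-KO calls and 0 METTL14-KO against WTAP-KO calls were made (110 at an unadjusted p under 0.05). Of 95 alternative values for the 5 regions of largest METTL3-KO difference, 90 kept their call, 5 missed the threshold and 0 reversed. Those missing it included CAVIN2 with signals divided by the step and TSC22D2 with the step, with the block and without METTL3-KO library 1.

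Peak lists hold no coverage outside calls, so a missing call is not a level of 0, and read depth is unknown. Values of a region with and without a call cannot be set against each other as levels.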

Other observations

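The 737 regions were spread unevenly over the chromosomes, as were other regions called in all 6 KO libraries. Chromosome 6 held 112 of them (15.2%), against 7.70% of all regions with a KO peak and 5.45% of those with an NTC peak. It held 223 of the 1439 regions called in all 6 KO libraries and 74 of the 504 called in all 9, and 50.2% of those 223 had no NTC peak. Of the 112, 60 lay between 24 and 40 Mb, a stretch that holds the histone genes and the major histocompatibility complex, and 0 lay before 24 Mb, where 12 regions had a KO peak and 188 an NTC peak. Chromosome 7 held 1 of the 737 (0.136%) but 382 regions with a KO peak (3.54%), and it held 9 of the 1439 and 3 of the 504. Chromosomes 16 and 22 held 4 and 1, and chromosomes 18 and X held 0, with 96 and 72 regions with a KO peak.

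Among the 50 regions away from any annotated start, the strongest was an intergenic one at chr13:20693865-20695643, 17025 bp from the start of LINC01072. Its signal was 20485 and 11776 in METTL3-KO, 10153 and 7895 in METTL14-KO, and 5825 and 8658 in WTAP-KO. The next lay 5670 bp from the start of CDKN2C (chr1:51441587-51443558), with 20572 and 13773, 8977 and 7351, and 4645 and 5527 in the same order. Both had peaks over 1000 bp in the METTL3-KO libraries and no NTC peak within 5 kb.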
